A study of Mus musculus with 16 samples.

Results

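Langerhans cells, dendritic cells and the MHC class II pathway were followed through 9 genes of whole mouse skin, taken as a list of symbols and found by gene identifier among the 55359 genes counted in each library: Cd207, Flt3, Zbtb46, Itgax, Clec9a, Cd74, H2-Aa, H2-Ab1 and H2-Eb1. The chain genes H2-Aa, H2-Ab1 and H2-Eb1 lie together on chromosome 17, Cd74 on 18, Cd207 and Clec9a on 6, Flt3 on 5, Itgax on 7 and Zbtb46 on 2. All 9 passed the filter on low counts, which left 17531 genes for testing. The samples were 16 poly(A) RNA libraries of dorsal skin from male mice aged 8 weeks whose hair cycle is labelled telogen (rest). KO mice lacked both TNF receptor genes, Tnfrsf1a and Tnfrsf1b, and WT mice carried both. The groups were KO UVB, KO control, WT UVB and WT control, with 4 libraries each, where UVB is a treatment labelled 3xUVB and control is skin with no UVB. The sources used here do not name the strain, the UVB dose, the time of collection, whether WT mice were littermates or which part of each receptor gene is removed. The series is about TNF signalling and the response of melanocyte stem cells to UVB, and the question here is how antigen-presenting cell transcripts of the skin differed with UVB and with loss of the receptors.

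Langerhans cells are the antigen-presenting cells of the epidermis, and they carry the lectin langerin, encoded by Cd207. Conventional dendritic cells of the dermis depend on the growth factor receptor Flt3 and express the transcription factor Zbtb46 and the integrin chain Itgax (CD11c), and the type 1 subset carries the lectin Clec9a. Both kinds of cell load peptides on MHC class II molecules, which pair an alpha and a beta chain (H2-Aa with H2-Ab1, and H2-Ea with H2-Eb1) on the invariant chain Cd74 under control of the transactivator Ciita. UVB is known in mouse skin for moving Langerhans cells out of the epidermis, and TNF for mobilising them.

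Libraries held 15644375 to 23200649 reads in genes. The targeted genes followed the labels: Tnfrsf1a was at 82.2 to 104.8 CPM (read counts scaled to library size, TMM-normalised) in the 8 KO libraries and 133 to 162 CPM in the 8 WT libraries, and Tnfrsf1b at 15.6 to 27.9 and 33.6 to 69.6 CPM. The labels do not say whether the libraries of a group are separate animals. Each p-value therefore sets a difference between groups against the spread among these samples, which may in part be technical. The pieces also differed in what they held besides immune cells. Although all skin was labelled telogen, the summed level of 16 genes of growing hair follicles was highest in WT control: it was 14.8 to 26.8 CPM in KO UVB, 92.1 to 326 CPM in KO control, 22.2 to 189.7 CPM in WT UVB and 1223 to 3099.6 CPM in WT control libraries. For 10 skeletal muscle genes the sum was 12171 to 20834 CPM in KO UVB, 25392 to 41286 CPM in KO control, 16739 to 24930 CPM in WT UVB and 21095 to 28257 CPM in WT control libraries.

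A set of 5 libraries stood apart from the other 11 in the MHC region, and the difference crossed the group labels. KO UVB library 1 held 47 reads of H2-Ea-ps, the class II alpha chain gene H2-Ea under its pseudogene symbol, KO control libraries 1, 3 and 4 held 104, 121 and 108, and WT UVB library 3 held 111. The remaining 11 libraries, all 4 of WT control among them, held 0 or 1. In the same 5 libraries H2-Eb1 had 0.537 to 0.584 reads for each H2-Ab1 read, against 0.856 to 0.940 in the other 11, with no overlap. Some genes of the same chromosome, picked after their values were seen, also separated the 5 from the 11. H2-T23 was at 72.4 to 115 against 148 to 286 CPM and H2-T22 at 40.3 to 85.8 against 90.3 to 214 CPM. Vps52, a gene of vesicle tethering, was at 60.9 to 67.9 against 48.8 to 57.1 CPM. The CPM of H2-K1, H2-DMa, H2-DMb1, H2-Aa, H2-Ab1 and H2-Eb1 overlapped between the 5 and the 11. H2-K1, for one, was at 575 to 930 against 922 to 1658 CPM. Mice of the C57BL/6 strain are known to make no H2-Ea transcript. Whether the 5 libraries came from mice with another form of the MHC region was not tested. They made up 1 of 4 KO UVB, 3 of 4 KO control, 1 of 4 WT UVB and 0 of 4 WT control libraries. For the H2 genes the difference between KO and WT without UVB cannot be told apart from this split of libraries. The UVB effect in KO, the UVB effect in WT (1 of 4 against 0 of 4 libraries) and the difference of the UVB effects are also mixed with it. Genes outside the region moved as well when H2-Ea-ps reads were a covariate. For KO against WT without UVB, Cd74 went from -0.40 to 0.05 and Cd207 from -0.30 to 0.05. The number of all genes called there went from 297 to 70. Results are given below with and without the 5 libraries.

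**Figure D1:**
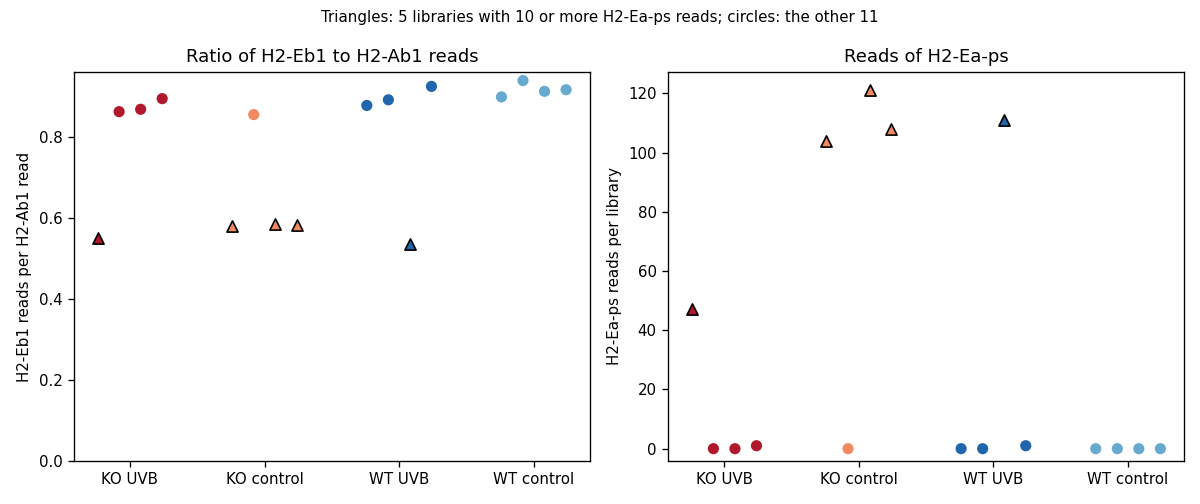
Ratio of H2-Eb1 to H2-Ab1 reads (left, no unit) and number of H2-Ea-ps reads (right) in each of the 16 libraries by group, with triangles for the 5 libraries that held 10 or more H2-Ea-ps reads. All 5 triangles lie between 0.537 and 0.584 on the left, below the other 11 libraries, and 3 of them are in KO control.

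Promoters of class II genes are known for short elements, the X box and the Y box, that bind the RFX and NF-Y factors that recruit Ciita. The RefSeq promoter windows (GRCm38.p6, 250 bases before to 50 after the gene's start, in the direction of the gene) are shown for 2 class II chains, at chr17:34287774-34288073 (minus strand) for H2-Aa and chr17:34305617-34305916 (plus strand) for H2-Eb1, and for the Langerhans gene Cd207 at chr6:83677808-83678107 (minus strand) for contrast. In log2 CPM over 16 libraries, H2-Aa had a Pearson r of 0.9275 with H2-Eb1 and 0.9134 with Cd207. Capitals mark matches to CTNGCAAC, the core of the X box, and to CTGATTGG, the Y box.
H2-Aa: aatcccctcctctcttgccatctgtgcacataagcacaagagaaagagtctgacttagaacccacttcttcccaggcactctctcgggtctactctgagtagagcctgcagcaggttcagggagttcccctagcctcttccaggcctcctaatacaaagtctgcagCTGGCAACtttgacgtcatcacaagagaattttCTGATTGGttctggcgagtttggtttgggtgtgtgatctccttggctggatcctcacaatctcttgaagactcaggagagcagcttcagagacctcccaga
H2-Eb1: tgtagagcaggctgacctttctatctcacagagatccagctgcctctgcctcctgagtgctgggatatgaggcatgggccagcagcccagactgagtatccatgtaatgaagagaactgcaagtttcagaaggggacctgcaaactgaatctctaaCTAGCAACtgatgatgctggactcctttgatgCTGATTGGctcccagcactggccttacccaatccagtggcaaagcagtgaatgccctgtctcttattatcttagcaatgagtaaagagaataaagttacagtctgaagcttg
Cd207: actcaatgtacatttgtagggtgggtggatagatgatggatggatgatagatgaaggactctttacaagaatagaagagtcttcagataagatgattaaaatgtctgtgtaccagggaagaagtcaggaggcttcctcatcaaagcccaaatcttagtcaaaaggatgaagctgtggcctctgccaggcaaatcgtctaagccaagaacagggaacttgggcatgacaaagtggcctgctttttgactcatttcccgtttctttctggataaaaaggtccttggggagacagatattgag
The X box core began at position -84 from the start of H2-Aa and -94 from that of H2-Eb1, and the Y box at -51 and -62, with no overlap between the motifs. Searched on both strands, the X box core stood in 3.42% and the Y box in 4.1% of 32851 mouse promoter windows, and both stood in 0.18%. The windows of Cd207, Flt3, Itgax, Clec9a and Zbtb46 held neither. Among the 8 class II chain and chaperone genes with a window, H2-Aa, H2-Eb1 and H2-Eb2 held both motifs, H2-Oa the Y box alone, H2-Ob the X box core alone, and H2-DMa, H2-DMb1 and H2-DMb2 neither. In H2-Eb2 the order was the reverse of the other 2, with the Y box at -103 and the X box core at -12. RefSeq windows were matched for 7 of the 9 genes, those other than Cd74 and H2-Ab1. These are matches of letters, not measured binding sites.

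In WT skin the class II genes were by far the most abundant of the 9 per length of transcript. Scaled to exon length, Cd74 stood at 934 ± 169.6 CPM per kb in WT control libraries (SD, n = 4), ahead of H2-Eb1 at 368 ± 58.6, H2-Ab1 at 304 ± 51.8 and H2-Aa at 250.4 ± 33.3 CPM per kb. Cd207 followed at 15.2 ± 2.00, then Itgax at 3.66 ± 0.941, Flt3 at 1.76 ± 0.185, Zbtb46 at 1.17 ± 0.160 and Clec9a at 1.03 ± 0.415 CPM per kb. Within this order the SD ranges of H2-Eb1 and H2-Ab1, of H2-Ab1 and H2-Aa, and of Zbtb46 and Clec9a overlapped, and those of the other neighbours did not. Clec9a rested on the fewest reads, 15 to 117 in a library, and on an uncertain strand, since 36.6% of its reads by strand were antisense, against 0.377 to 1.85% for the other 8 genes. The B cell markers Ms4a1 (0 to 0.266 CPM in any library) and Cd79a (0 to 0.297 CPM) were at or near 0 in every group.

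**Figure D2:**
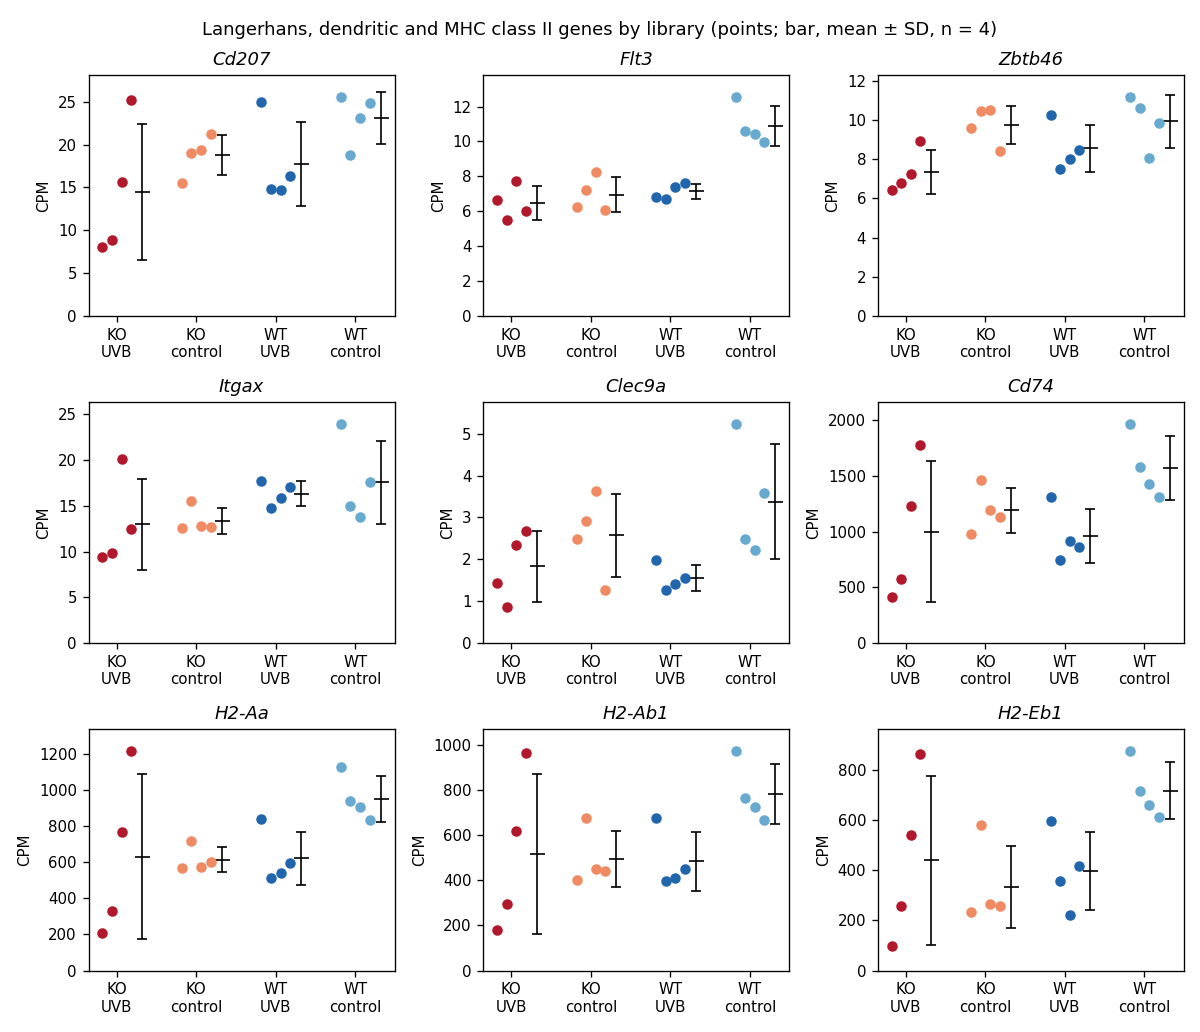
Normalised level (CPM, linear axis) of each of the 9 genes in every library of the 4 groups, with a bar for the group mean ± SD (n = 4). WT control libraries lie above all others for Flt3, while for Cd74 and the H2 genes the 4 KO UVB libraries are spread most widely, from 413 to 1778 CPM for Cd74.

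In WT skin UVB went with fewer reads of Flt3, the receptor for the dendritic cell growth factor FLT3 ligand, and of Clec9a, a lectin of type 1 dendritic cells that binds dead cells. The values of all 9 genes were negative, with a median log2 fold change of -0.61 beside -0.03 over all genes tested, and 2 of the 9 passed the test, both lower. In this comparison 18.8% of all genes tested were called and 8.6% were called lower. In whole skin, fewer cells of a type and less RNA per cell cannot be told apart in any of these values.

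Flt3 was at 6.83, 6.69, 7.42 and 7.61 CPM in WT UVB libraries 1 to 4, against 12.6, 10.6, 10.4 and 9.99 CPM in WT control. Every WT UVB library lay below every WT control library, and the change was -0.61 ± 0.13 on the log2 scale (SE, edgeR quasi-likelihood test, adjusted p = 0.00440). It was called under each of 27 alternative settings, at -0.70 to -0.52 with adjusted p from 0.000162 to 0.0219, and was -0.61 (0.0162) without the 5 libraries with H2-Ea-ps reads. The summed hair follicle genes named above moved with it, being highest in the same 4 WT control libraries. The leukocyte gene Ptprc lay lower too, at 72.8 to 107 CPM in WT UVB, against 109.8 to 172 CPM in WT control libraries, with no overlap (-0.55 ± 0.28, edgeR, adjusted p = 0.187). The log2 ratio of Flt3 to Ptprc was -3.60 ± 0.24 in WT UVB and -3.54 ± 0.16 in WT control libraries (SD, n = 4 each). For Cd74 that ratio was 3.42 ± 0.16 in WT UVB and 3.61 ± 0.077 in WT control libraries. The part of hair follicle content or of leukocyte reads in the Flt3 and class II values was not tested.

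Clec9a was at 1.98, 1.28, 1.41 and 1.56 CPM in WT UVB, against 5.23, 2.48, 2.23 and 3.58 CPM in WT control libraries. The groups did not overlap, and the change was -1.12 ± 0.37 (edgeR, adjusted p = 0.0440). Over 26 alternatives the adjusted p ran from 0.0103 to 0.173 and 12 of them ended the call, leaving out WT control library 1, the highest, giving the largest p at a change of -0.81. Leaving out the 5 libraries with H2-Ea-ps reads gave -1.06 (adjusted p = 0.101).

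The class II genes were also lower on average in WT UVB skin, but none of them passed the test. Cd74, the invariant chain that escorts class II molecules, was at 1311, 748, 914 and 863 CPM in WT UVB, against 1962, 1577, 1423 and 1309.8 CPM in WT control libraries. WT UVB library 1 reached the level of the lowest control library, and the other 3 lay below all controls (-0.71 ± 0.34, edgeR, adjusted p = 0.165). The alpha chain H2-Aa was at 838, 514, 543 and 594 CPM in WT UVB, against 1128, 938, 906 and 832 CPM in WT control libraries (-0.61 ± 0.38, edgeR, adjusted p = 0.274).

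The beta chain H2-Ab1 was at 678, 398, 410.4 and 449 CPM in WT UVB, against 972, 762, 724 and 667 CPM in WT control libraries (-0.69 ± 0.38, edgeR, adjusted p = 0.219). For both chains WT UVB library 1 alone overlapped the controls. H2-Eb1, the second beta chain, was at 595, 356, 220.2 and 416 CPM in WT UVB, against 874, 717, 661 and 612 CPM in WT control libraries, and its groups did not overlap (-0.85 ± 0.49, edgeR, adjusted p = 0.242). Flt3, Clec9a and H2-Eb1 were the 3 of 9 genes with no overlap, where 28.2% of all genes tested had none and 13.1% lay wholly lower. An edgeR fit of the 2 WT groups alone called Cd74 (adjusted p = 0.0208), H2-Aa (0.0217), H2-Ab1 (0.0229) and H2-Eb1 (0.0431) lower. Each had a fold change like that of the 4-group fit. The share of all genes called in that fit is not given here. In the 4 groups, limma voom called Cd74 (-0.73, adjusted p = 0.0495), where it called 5100 of all 17531 genes tested. Without the 5 libraries with H2-Ea-ps reads, of which WT UVB library 3 is 1, the changes were -0.67, -0.54, -0.61 and -0.64. Over all 27 alternatives, those reads as a covariate among them, Cd74 ran from -0.88 to -0.54 and H2-Aa from -0.77 to -0.42. H2-Ab1 ran from -0.88 to -0.46 and H2-Eb1 from -1.10 to -0.52.

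The Langerhans gene Cd207 was at 25.0, 14.8, 14.7 and 16.3 CPM in WT UVB, against 25.6, 18.8, 23.1 and 24.9 CPM in WT control libraries. Again library 1 of WT UVB stood at control level and the other 3 lay below all controls, and the change of -0.38 ± 0.28 did not pass (edgeR, adjusted p = 0.369, 95% interval -0.98 to 0.22). Zbtb46, a transcription factor of conventional dendritic cells, gave -0.21 ± 0.14 (adjusted p = 0.300). Itgax, the CD11c chain shared with macrophages, gave -0.11 ± 0.21 (adjusted p = 0.758).

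In KO skin the UVB and control groups overlapped for all 9 genes, and 1 of the 9 was called, Zbtb46, which was lower. In this comparison 32.3% of all genes tested were called, 15.1% were called lower, 25.1% had groups that did not overlap and 11.5% lay wholly lower. The median of the 9 was -0.10, beside -0.02 over all genes tested. Zbtb46 was at 6.42, 6.79, 7.25 and 8.93 CPM in KO UVB, against 9.57, 10.4, 10.5 and 8.43 CPM in KO control libraries. KO UVB library 4 lay above the lowest control and the other 3 below all controls (-0.40 ± 0.14, edgeR, adjusted p = 0.0366). The call ended under 10 of 27 alternatives, among them leaving out KO control library 1, 2 or 3 or KO UVB library 1, 2 or 3 (adjusted p = 0.0531 to 0.0973). It was -0.45 (adjusted p = 0.214) without the 5 libraries with H2-Ea-ps reads.

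The class II genes of KO UVB skin were spread more widely than in any other group. Cd74 was at 413, 573, 1231 and 1778 CPM in KO UVB libraries 1 to 4, against 975, 1462, 1189.9 and 1128 CPM in KO control. Libraries 1 and 2 lay below all KO controls and library 4 above them, so the change of -0.25 ± 0.34 had a 95% interval of -0.98 to 0.48 (edgeR, adjusted p = 0.609). H2-Aa was at 209, 332, 765 and 1216 CPM in KO UVB, against 566, 719, 574 and 601 CPM in KO control libraries, with the first pair below and the last pair above all controls (0.04 ± 0.38, adjusted p = 0.950).

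H2-Ab1 was at 178, 296, 620.2 and 966 CPM in KO UVB, against 403, 676, 451 and 443 CPM in KO control libraries (0.06 ± 0.38, edgeR, adjusted p = 0.917). H2-Eb1 was at 98.2, 256, 539 and 864 CPM in KO UVB, against 234, 579, 264 and 258 CPM in KO control libraries (0.40 ± 0.49, edgeR, adjusted p = 0.568). The same 2 libraries were lowest and the same library was highest for all 4 class II genes. With H2-Ea-ps reads as a covariate, H2-Aa, H2-Ab1 and H2-Eb1 gave -0.44, -0.45 and -0.50, none called (adjusted p = 0.429, 0.368 and 0.329). Without the 5 libraries, of which KO UVB library 1 and KO control libraries 1, 3 and 4 are part, they gave 0.09, -0.12 and -0.08.

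Cd207 followed the same libraries, at 8.06, 8.90, 15.7 and 25.1 CPM in KO UVB, against 15.5, 19.0, 19.4 and 21.2 CPM in KO control. Libraries 1 and 2 were below all KO controls and library 4 above all of them, and the test did not call it (-0.37 ± 0.29, edgeR, adjusted p = 0.338). Without KO UVB library 4 it was called lower (-0.77, adjusted p = 0.0160). Limma voom with sample quality weights also called it (-0.86, adjusted p = 0.00707), with Cd74 (-0.85, adjusted p = 0.0175), Clec9a (-1.19, adjusted p = 0.0301) and Zbtb46. With UVB in KO, limma voom called 7508 of all 17531 genes tested. Macrophage and monocyte genes, from cells that can also carry class II, summed to 2270.3, 3876, 5094 and 4362 CPM in KO UVB libraries 1 to 4 and to 2213 to 3850.2 CPM in KO control. In WT skin they summed to 1942 to 2900.2 CPM after UVB, against 2428 to 4250 CPM in control. Over the 13 genes the median change was 0.40 with UVB in KO and -0.40 in WT. The median difference of the UVB effects was 0.88, beside 0.46 for 10 class II chain and chaperone genes. Of the 13, edgeR called 1 with UVB in KO, higher, 0 with UVB in WT and 0 for the difference of the UVB effects. Over all genes tested, 32.3%, 18.8% and 0.0228% were called in the same order, and the medians were -0.02, -0.03 and 0.02. The part of macrophages and monocytes in the class II values was not tested.

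Flt3 kept to a narrower band in KO skin, at 6.67, 5.48, 7.71 and 6.01 CPM in KO UVB, against 6.22, 7.21, 8.25 and 6.10 CPM in KO control libraries. The groups lay over each other (-0.10 ± 0.13, edgeR, adjusted p = 0.586, 95% interval -0.38 to 0.18). Clec9a was at 0.856 to 2.69 CPM in KO UVB, against 1.28 to 3.62 CPM in KO control libraries (-0.48 ± 0.36, adjusted p = 0.336). Itgax was at 9.46 to 20.1 CPM in KO UVB, against 12.5 to 15.5 CPM in KO control libraries (-0.04 ± 0.21, adjusted p = 0.906).

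**Figure D3:**
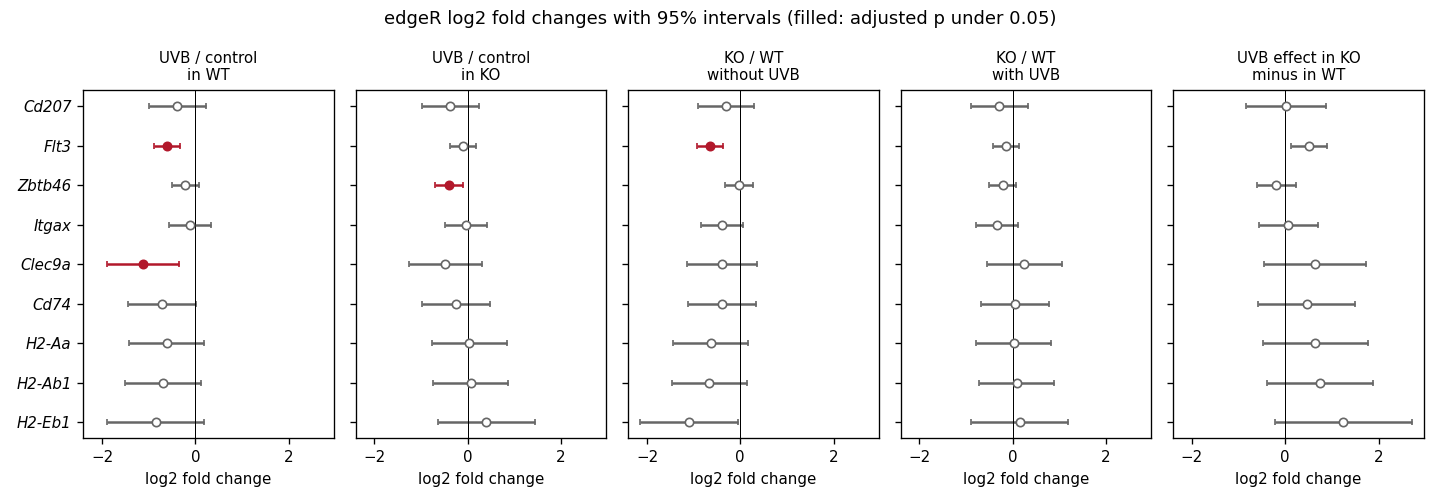
Log2 fold changes of the 9 genes with 95% intervals in the 5 comparisons, with filled points for an adjusted p under 0.05 in edgeR's quasi-likelihood test. Filled points are Flt3 (-0.61) and Clec9a (-1.12) for UVB in WT, Zbtb46 (-0.40) for UVB in KO and Flt3 (-0.65) for KO against WT without UVB.

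Between genotypes, Flt3 was the gene of the 9 that differed in unexposed skin. KO control libraries held 6.22 to 8.25 CPM, against 9.99 to 12.6 CPM in WT control, with no overlap (-0.65 ± 0.13, edgeR, adjusted p = 0.0157). It was the 1 of 9 genes called, where 1.69% of all genes tested were called and 1.28% were called lower. The summed hair follicle genes again moved with it, at 92.1 to 326 CPM in KO control skin, against 1223 to 3099.6 CPM in WT control, and their part was not tested. The call ended under 5 of 27 alternatives: without WT control library 1 (adjusted p = 0.0653), KO control library 1 (0.0561) or KO control library 4 (0.0645), with H2-Ea-ps reads as a covariate (-0.66, 0.117), and without the 5 libraries that held them (-0.59, 0.520), which leaves a single KO control library that is assumed to vary like the other groups.

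The class II genes were lower on average in KO than in WT control skin, and none passed the test. H2-Eb1 gave -1.10 ± 0.49 (edgeR, adjusted p = 0.425), H2-Ab1 -0.66 ± 0.38 (0.589), H2-Aa -0.63 ± 0.38 (0.617) and Cd74 -0.40 ± 0.34 (0.774). H2-Eb1 and H2-Aa joined Flt3 as the 3 of 9 genes whose groups did not overlap, where 7.68% of all genes tested had no overlap and 4.63% lay wholly lower. The H2-Eb1 value followed the libraries that stood apart: KO control libraries 1, 3 and 4, with H2-Ea-ps reads, were at 234, 264 and 258 CPM, and library 2, without them, at 579 CPM, near the lowest WT control library at 612 CPM. With those reads as a covariate the changes were -0.06 for H2-Eb1, -0.05 for H2-Ab1, -0.07 for H2-Aa and 0.05 for Cd74, and without the 5 libraries they were -0.30, -0.20, -0.39 and -0.09.

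The other genes did not pass in KO against WT control skin either. Cd207 gave -0.30 ± 0.28 (edgeR, adjusted p = 0.804), Itgax -0.40 ± 0.21 (0.547), Clec9a -0.39 ± 0.35 (0.789) and Zbtb46 -0.03 ± 0.14 (0.983). After UVB, KO and WT skin overlapped for all 9 genes, from -0.33 for Itgax to 0.25 for Clec9a, with 0 genes called by edgeR, DESeq2 or limma voom and 0 at an unadjusted p under 0.05, where 0.856% of all genes tested were called and 8.16% did not overlap. For Cd207 the interval of that difference was -0.90 to 0.32, and for H2-Ab1 -0.71 to 0.89, so differences within those intervals were not excluded.

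No gene of the 9 was shown to answer UVB differently in the 2 genotypes. Taking the effect in KO minus the effect in WT, the difference was 0.51 ± 0.18 for Flt3 (95% interval 0.12 to 0.90, edgeR, adjusted p = 0.270), the 1 gene with an unadjusted p under 0.05, where 0.0228% of all genes tested were called and where DESeq2 and limma voom also called 0 of the 9. For H2-Eb1 it was 1.25 ± 0.69 (adjusted p = 0.466), for H2-Ab1 0.75 ± 0.53 (0.578), for H2-Aa 0.65 ± 0.53 (0.636) and for Cd74 0.46 ± 0.49 (0.729). With H2-Ea-ps reads as a covariate the values of H2-Eb1 and H2-Ab1 were 0.02 and 0.0084. For Cd207 the value was 0.01 ± 0.40 (adjusted p = 0.995).

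Across libraries the other genes ran with the class II genes to different degrees. Over 16 libraries, H2-Aa and H2-Ab1 had a Pearson r of 0.987 in log2 CPM, and 0.986 after each group's mean was taken out. Cd74 and H2-Ab1, on different chromosomes, had 0.969 and 0.987, and Cd207 with Cd74 had 0.912 and 0.902. With Cd74, Zbtb46 had 0.778 and 0.723, Clec9a 0.754 and 0.633 and Itgax 0.632 and 0.652. Flt3, at the low end, had 0.555 with Cd74 and 0.492 with Cd207, which came to 0.255 and 0.0937 within groups. These are descriptions over libraries that share depth and the make-up of the skin piece, and carry no test.

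**Figure D4:**
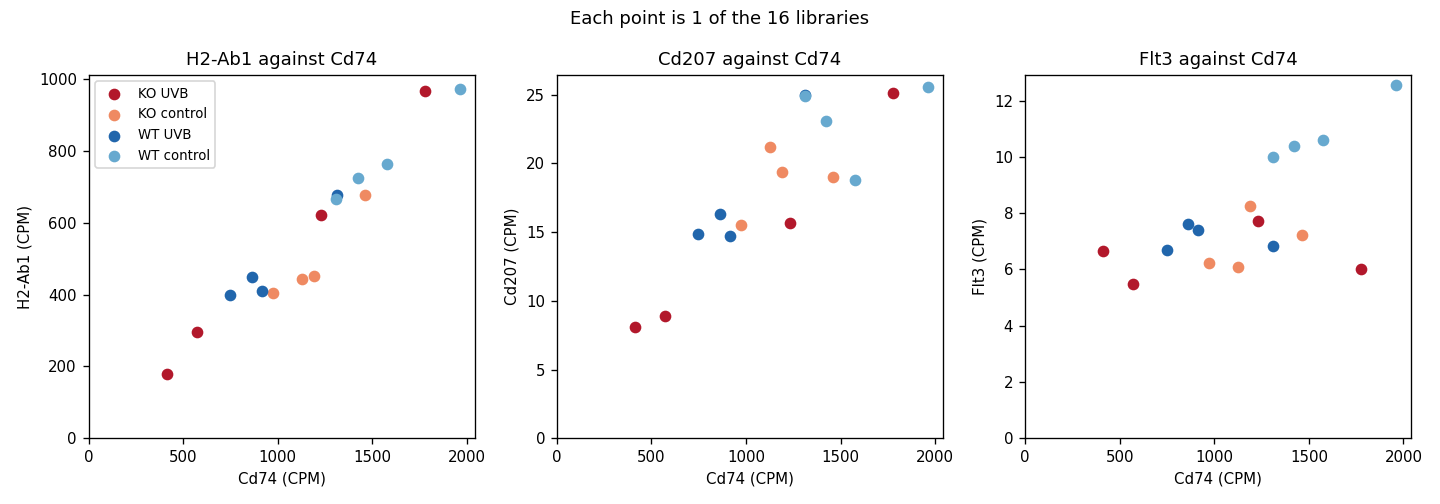
CPM of H2-Ab1, Cd207 and Flt3 (vertical axes) against CPM of Cd74 (horizontal axes), 1 point per library, coloured by group. H2-Ab1 and Cd207 rise with Cd74 through all groups (r = 0.969 and 0.912 in log2 CPM), whereas the Flt3 points of WT control sit above the rest.

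By the same measure, out of 13026 genes with a mean count of at least 50 and with the 9 genes themselves left out, the genes most like Cd207 were Ctsw (r = 0.968), a cysteine protease of cytotoxic lymphocytes, Nkg7 (0.942), a granule protein of such cells, the class I genes H2-Q6 (0.935) and H2-Q7 (0.932), and Lck (0.925), a T cell kinase. Outside the 9, those most like H2-Ab1 were the T cell adhesion gene Cd2 (0.944), H2-M3 (0.940), the class I loading gene Tapbp (0.939), H2-Q7 (0.938) and H2-DMa (0.936), which exchanges peptides on class II. Those most like Flt3 were Tmc8 (0.891), Ttll4 (0.883), the Wnt receptor Fzd5 (0.871), Pag1 (0.863) and Hif3a (0.861). Of these last 5, Tmc8 kept its value within groups (0.894) and Hif3a came to 0.402. The split of the 5 libraries with H2-Ea-ps reads from the other 11 was not taken out of any r value given here or for the 9 genes above. Its part in them was not tested.

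The wider class II machinery was taken from lists of genes. None of 10 class II chains and chaperones was called by edgeR in any comparison. Their median was -0.60 for UVB in WT (1 gene with an unadjusted p under 0.05, 1 called by DESeq2 and 2 by limma voom), 0.03 for UVB in KO (0, 0 and 4), -0.45 for KO against WT without UVB (1, 0 and 0), 0.02 with UVB (0, 0 and 0) and 0.46 for the difference of the UVB effects (0, 0 and 0). Of all 17531 genes tested, DESeq2 called 3856 for UVB in WT and 6079 for UVB in KO, and limma voom 5100 and 7508. H2-DMa was at 51.7 ± 30.5 CPM in KO UVB, 51.0 ± 8.26 in KO control, 57.6 ± 12.7 in WT UVB and 63.3 ± 8.02 in WT control libraries (SD, n = 4 each, as for mean CPM below). H2-DMb1 was at 54.0 ± 32.1, 43.6 ± 10.7, 55.6 ± 13.3 and 62.0 ± 7.38 CPM in the same order. H2-Ea, at 0 in WT control, was kept out of these counts.

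Of 14 genes that drive class II transcription or cut antigens, 5 were called after UVB in KO skin and 3 in WT skin, shares near the 32.3% and 18.8% of all genes tested that were called in KO and WT. The lysosomal thiol reductase Ifi30 was higher in both, at 0.41 in WT (edgeR, adjusted p = 0.00792) and 0.56 in KO (0.000697). Ctsl, a cathepsin that also acts in epidermis, was higher in KO (0.76, adjusted p = 0.000203), as was the protease Lgmn (0.72, 0.0393). Ctsl was also the 1 gene of the list called in KO against WT skin with UVB (0.53, 0.0342), where 0.856% of all genes tested were called. Over the alternatives that count of the list ran from 0 to 2. The Y box factor subunit Nfyb was higher in WT (0.27, 0.0395) and KO (0.25, 0.0336), its partner Nfya was lower in WT (-0.32, 0.0305), and the X box factor Rfx5 was lower in KO (-0.33, 0.0204). The transactivator Ciita, at 34.9 ± 15.1 CPM in KO UVB, 39.7 ± 10.1 in KO control, 40.4 ± 4.93 in WT UVB and 50.2 ± 16.4 in WT control libraries, was not called in any comparison, nor was Ctss, the cathepsin that trims Cd74. The list's medians were 0.11 in KO and -0.01 in WT. Of the 14, 2 were called after UVB in KO and 2 in WT when the 5 libraries with H2-Ea-ps reads were left out. That setting called fewer genes of every kind, 2689 of 18764 tested for UVB in KO and 2602 in WT, against 5666 and 3290 of 17531 with all libraries, and the list counts below without those libraries are to be read against that.

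Among 14 Langerhans cell genes, Cd207 included, Il34, the keratinocyte ligand that keeps Langerhans cells in the epidermis, fell after UVB in both genotypes. It was at 20.5 ± 3.05 CPM in KO UVB, against 37.0 ± 7.25 CPM in KO control libraries (-0.85 ± 0.14, edgeR, adjusted p = 0.000393), and at 26.0 ± 2.06 CPM in WT UVB, against 35.6 ± 3.63 CPM in WT control libraries (-0.45 ± 0.13, 0.0299). Its receptor Csf1r, which macrophages share, was not called (0.02 ± 0.22 in KO and -0.57 ± 0.22 in WT), nor was the adhesion gene Epcam, which keratinocytes also express. Cd24a, a glycoprotein also made by keratinocytes, was higher in KO (1.43, adjusted p = 6.29e-05) and in WT (1.27, 0.000178). In KO skin Ahr (-0.48, 0.0145) and the TGF-beta receptor Tgfbr1 (-0.27, 0.00606) were lower and the myeloid factor Spi1 higher (0.55, 0.0454). In all, 2 of the 14 rose and 3 fell in KO (median 0.00067) and 1 rose and 1 fell in WT (median -0.20), beside 32.3% of all genes tested called in KO and 18.8% in WT. Leaving out the 5 libraries with H2-Ea-ps reads, 3 and 2 were called.

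Other genes of conventional dendritic cells changed in both directions. Of 13 core genes, Snx22 rose after UVB in KO (0.66, edgeR, adjusted p = 0.0114) and WT (0.81, 0.00617) and Kit, also a melanocyte and mast cell gene, fell in WT (-0.43, 0.0178), with medians of -0.10 in KO and -0.37 in WT. Of 11 type 1 genes, the adhesion gene Cadm1, also made outside these cells, fell in KO (-0.71, 0.000224) and WT (-0.67, 0.000445), as did Gcsam in KO (-0.54, 0.0330) and WT (-0.98, 0.00201), with medians of -0.21 in KO and -0.62 in WT. The type 1 chemokine receptor Xcr1 gave -0.43 ± 0.40 in KO and -0.40 ± 0.39 in WT. Of 11 type 2 genes, Cd209d rose in KO (0.98, 0.00117) and WT (0.55, 0.0476), while Cd209a (0.29 ± 0.25 in KO, -0.24 ± 0.25 in WT) and Mgl2 (-0.31 ± 0.28 in KO, -0.58 ± 0.28 in WT) were not called. Without the 5 libraries with H2-Ea-ps reads, the numbers called in KO and WT were 0 and 3 of the core, 1 and 2 of the type 1 and 1 and 0 of the type 2 genes. With all libraries they were 2 and 3, 2 and 3, and 1 and 1, beside 32.3% of all genes tested in KO and 18.8% in WT. The ligand gene Flt3l was at 9.50 ± 4.04 CPM in KO UVB, 14.4 ± 2.70 in KO control, 9.97 ± 1.83 in WT UVB and 15.5 ± 3.67 in WT control libraries, and no comparison called it (adjusted p = 0.0979 for UVB in KO and 0.102 in WT).

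Of 15 genes of mature and migrating dendritic cells, 4 were called after UVB in KO skin, all higher (median 0.27), where 32.3% of all genes tested were called. In WT, where 18.8% of all genes were called, edgeR called 0 of the 15 (4 had an unadjusted p under 0.05, DESeq2 called 1 and limma voom 4). Of all 17531 genes tested, DESeq2 called 3856 and limma voom 5100 in WT. The 4 called in KO were Ccr7, the receptor that guides dendritic cells to lymph nodes (1.05 ± 0.37, edgeR, adjusted p = 0.0397), the costimulatory gene Cd80 (0.95, 0.0119), Il4i1 (0.79, 0.0396) and Socs2 (0.54, 0.00396). In WT Ccr7 gave -0.04 ± 0.36, and the difference between the genotypes was not called (1.09 ± 0.51, adjusted p = 0.391). Without the 5 libraries with H2-Ea-ps reads 0 of the 15 were called in KO and 1 in WT. Of 12 chemokine genes, Ccl20 (1.43, 0.0153) and Ccl2 (2.11, 0.0357) rose with Ccr7 in KO, and Cxcl14 (-0.70, 0.0245) and Ccl21a (-0.56, 0.0470) fell in WT, beside 32.3% of all genes tested called in KO and 18.8% in WT. Ccl20 is the ligand of Ccr6, and Ccl21a of Ccr7. Without the 5 libraries, where fewer of all genes were called, edgeR called 0 of the 12 in KO or WT.

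Of 9 plasmacytoid dendritic cell genes, Klk1, a kallikrein also made outside these cells, fell with UVB in KO (-1.88, edgeR, adjusted p = 0.000646) and was higher in KO than in WT without UVB (1.35, 0.0341), and Tcf4 fell with UVB in KO (-0.38, 0.0120). Of 13 interferon gamma response genes, which include inducers of Ciita, Cxcl9 was lower in KO than in WT without UVB, at 4.81 ± 1.22 CPM in KO control skin, against 26.4 ± 12.5 CPM in WT control skin (-2.45 ± 0.59, 0.0480), and Ifngr1 fell with UVB in WT (-0.44, 0.0231). Of 13 class I presentation genes, the chaperones Calr (0.70, 0.000612) and Pdia3 (0.53, 0.00120) rose with UVB in KO. Among all genes tested, 32.3% were called with UVB in KO, 18.8% with UVB in WT and 1.69% for KO against WT without UVB. The leukocyte gene Ptprc was at 111 ± 58.2 CPM in KO UVB, 104 ± 20.3 in KO control, 88.4 ± 14.5 in WT UVB and 129 ± 29.1 in WT control libraries and was called in no comparison. Between genotypes without UVB, edgeR called 7 of 18764 genes in all without the 5 libraries with H2-Ea-ps reads, none of them in the plasmacytoid or interferon lists.

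Markers of other immune cells moved beside these genes. T cell genes summed to 51.3 to 79.2 CPM in KO UVB, 63.8 to 87.2 in KO control, 60.7 to 88.6 in WT UVB and 79.2 to 114 in WT control libraries. Of its 10 genes 3 rose and 3 fell with UVB in KO, and 1 rose and 3 fell in WT, beside 32.3% of all genes tested called in KO and 18.8% in WT. Among them Trdc, of gamma delta T cells, fell in KO (-1.83, edgeR, adjusted p = 2.72e-05) and WT (-1.59, 8.05e-05), Cd3e fell in KO (-1.31, 0.00435) and WT (-1.19, 0.0112), and Trbc2 rose in KO (0.83, 0.000386) and WT (0.57, 0.00750). B cell genes summed to 4.68 to 9.05 CPM in KO UVB, 5.17 to 6.22 in KO control, 3.37 to 4.17 in WT UVB and 5.11 to 9.30 in WT control libraries, with Blk (-1.63, 0.0124) and Cd79b (-1.23, 0.0286) lower after UVB in WT. The part of these cells in the values of Flt3, Clec9a and the class II genes was not tested.

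**Figure D5:**
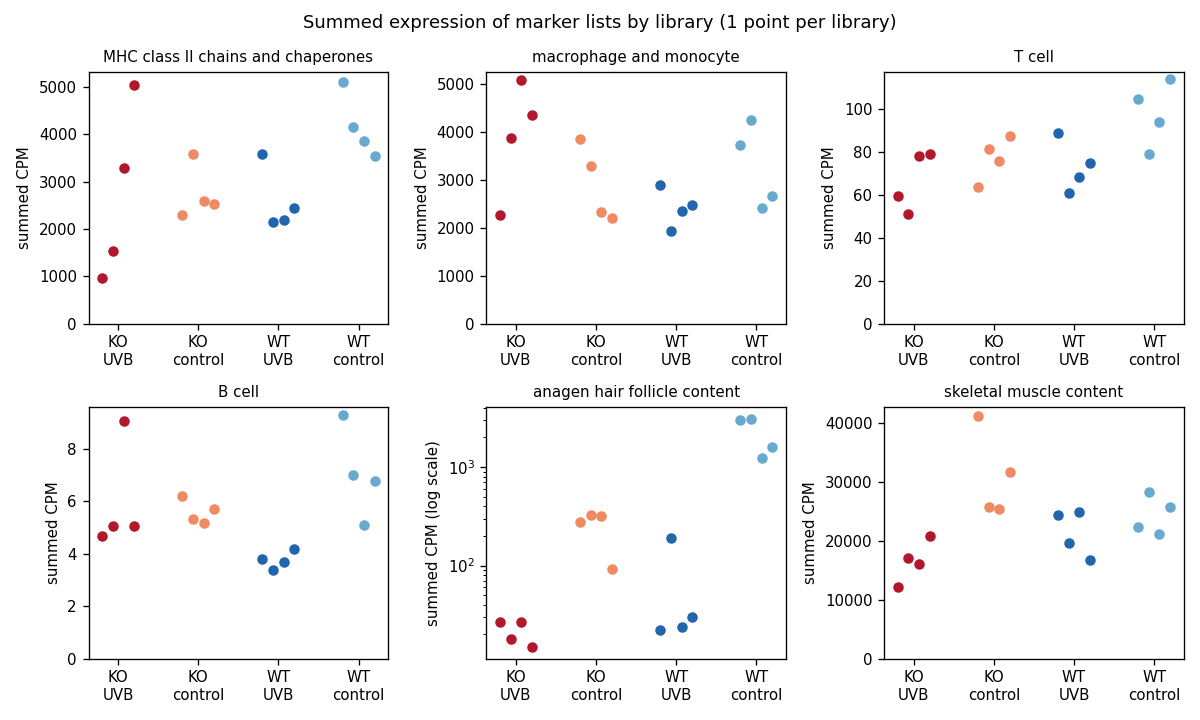
Summed CPM of 6 gene lists in each library by group, 1 point per library, with a log scale for the hair follicle list. Class II genes range most widely in KO UVB skin, and hair follicle genes are highest in WT control, at 1223 to 3099.6 CPM.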

How the data were processed

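RNA of dorsal skin was extracted with Trizol, selected for poly(A) and made into directional NEBNext Ultra II libraries, per the labels' protocols. Reads were mapped with STAR to GRCm39, per the submitters' processing notes; neither source states which version of STAR or which annotation was used. The deposited values are whole-number read counts per gene, made by the authors without normalisation, 1 file per library. The reverse-strand column was used, which held 95.74% of the strand-assigned gene reads. Unmapped reads were 10.7 to 19.5%, reads in no feature 7.25 to 10.2% and ambiguous reads 1.18 to 1.42% of each library, and these were left out of library sizes. The authors' combined table holds 17 value columns that were not used. Gene identifiers were named from a table of gene names (52083 of 55359 had a symbol).

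Counts were tested with edgeR 4.0.16 in R 4.3.3 (TMM scaling, filterByExpr, robust quasi-likelihood), with the means of the 4 groups in 1 model of all 16 libraries and 5 comparisons: UVB against control within each genotype, KO against WT without and with UVB, and the difference of the UVB effects. P-values were adjusted by Benjamini and Hochberg over 17531 genes and called under 0.05. Errors on log2 fold changes are standard errors, and intervals use edgeR's degrees of freedom. Errors on mean CPM, on CPM per kb and on log2 ratios to Ptprc are SDs over the 4 libraries of a group. Correlations used log2 CPM with a prior count of 2. Exon lengths came from a GRCm38 annotation and served for levels per kb. The procedure was tested on simulated data. Replicates of a group differed by more than sampling noise (chi-square per degree of freedom 13.6 to 143 over 24 pairs). Alternatives were DESeq2 1.42.0, limma 3.58.1 (voom with sample quality weights), other scalings, filters and strand settings, fits of 2 groups, a replicate block and leaving out each library; leaving out the libraries with H2-Ea-ps reads, or using those reads as a covariate, was added after the data were seen.

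The 9 genes and all lists were chosen with earlier results of these data known. Beside the 9, the text names up to 4 called genes with the smallest adjusted p per list and comparison, a set of genes named always, the 5 genes most like Cd207, Flt3 and H2-Ab1, and genes said to be picked after their values were seen. Lgmn and Spi1 were added likewise to complete the counts of their lists. Some genes of the marker lists are not reported here.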

Additional observations from a re-analysis of the deposited data

Results flagged for a closer look

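In 3 of 36 sets of 4 libraries (9 genes in 4 groups) 1 library lay far from the others, as the gap to its nearest neighbour over the whole range passed Dixon's 95% critical value, which chance passes in about 1 in 20 sets. Cd207 in WT UVB was at 25.0 CPM in library 1, against 14.7 to 16.3 CPM in the other 3 (ratio 0.8404). Itgax in KO control was at 15.5 CPM in library 2, against 12.5 to 12.8 CPM in the other 3 (0.9181). H2-Eb1 in KO control was at 579 CPM in library 2, the one without H2-Ea-ps reads, against 234 to 264 CPM in the other 3 (0.914).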

How the results depend on the processing

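Of 1201 values of the 9 genes under the alternatives, 1085 kept their direction and side of the threshold, 27 lost a call, 10 gained one and 79 changed sign, none of these a called value. Class II changes of the size seen with UVB in WT passed in the fit of 2 groups and not in the 4-group edgeR model, while limma voom on 4 groups called Cd74 alone of them (-0.73, adjusted p = 0.0495). Clec9a, with 15 to 117 reads a library, is the gene whose depth limits its values most. Scaling by library totals moved the median of all genes for UVB in WT to -0.12.

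The number of genes called for UVB in WT was 2, and 1 to 2 when each library was left out, 3 by limma voom, 1 with no filter beyond 1 read, 1 with a mean count of at least 100 (which removes Clec9a), 6 in the fit of 2 groups, 1 with the replicate block, and 1 both without the libraries with H2-Ea-ps reads and with those reads as a covariate. For UVB in KO it was 1, and 0 to 2 when each library was left out, 4 by limma voom, and 0 with no filter, in the fit of 2 groups, with the block and without the libraries with H2-Ea-ps reads. For KO against WT without UVB it was 1, and 0 to 1 when each library was left out, 2 in the fit of 2 groups (H2-Aa joining at -0.63, adjusted p = 0.0491), and 0 in both settings for H2-Ea-ps. It stayed at 0 with UVB and for the difference of UVB effects in every setting run. Of all 17531 genes tested, limma voom called 5100 for UVB in WT and 7508 for UVB in KO. The share of all genes called in the fits of 2 groups is not given here. The cause of the shifts in these numbers was not tested.

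The sign changed in the following uncalled values. By limma voom, UVB in KO gave -0.63 for H2-Aa, -0.51 for H2-Ab1 and -0.11 for H2-Eb1. KO against WT gave 0.025 for Zbtb46 without UVB and, with UVB, -0.47 for Cd74, -0.65 for H2-Aa, -0.48 for H2-Ab1, -0.48 for H2-Eb1 and -0.36 for Clec9a. The difference of UVB effects gave -0.42 for Cd207, -0.17 for Itgax, -0.12 for Cd74, -0.013 for H2-Aa and -0.11 for Clec9a. With library totals, UVB in KO gave -0.039 for H2-Aa and -0.017 for H2-Ab1, and KO against WT with UVB -0.023 for H2-Aa. With a mean count of at least 100 the difference of UVB effects was -0.0086 for Cd207.

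With the replicate block, UVB in KO gave -0.070 for H2-Aa and -0.013 for H2-Ab1, KO against WT with UVB -0.0044 for Cd74 and -0.081 for H2-Aa, and the difference of UVB effects -0.076 for Cd207. Deviations of same-numbered libraries correlated at -0.403 to 0.219 over 24 pairs, 3 of them over 0.1. These values cannot show whether the numbers pair the samples, as libraries of unlike number were not compared. Without the libraries with H2-Ea-ps reads, UVB in KO gave -0.12 for H2-Ab1 and -0.078 for H2-Eb1, KO against WT without UVB 0.083 for Zbtb46, and the difference of UVB effects -0.061 for Itgax. With those reads as a covariate, UVB in KO gave -0.44 for H2-Aa, -0.45 for H2-Ab1 and -0.50 for H2-Eb1. KO against WT without UVB gave 0.045 for Cd207, 0.054 for Cd74 and 0.10 for Zbtb46 and, with UVB, -0.037 for Cd74, -0.098 for H2-Aa, -0.040 for H2-Ab1 and -0.040 for H2-Eb1. The difference of UVB effects gave -0.37 for Cd207, -0.17 for Itgax, -0.090 for Cd74 and -0.026 for H2-Aa.

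Leaving out each library gave, for UVB in WT, -0.20 to 0.093 for Itgax. For UVB in KO it gave -0.49 to 0.32 for H2-Aa, -0.43 to 0.34 for H2-Ab1, -0.16 to 0.80 for H2-Eb1, -0.68 to 0.0029 for Cd74 and -0.32 to 0.085 for Itgax. KO against WT gave -0.12 to 0.040 for Zbtb46 without UVB and, with UVB, -0.38 to 0.30 for Cd74, -0.52 to 0.29 for H2-Aa, -0.41 to 0.36 for H2-Ab1 and -0.42 to 0.46 for H2-Eb1. The difference of UVB effects ran from -0.40 to 0.21 for Cd207 and -0.23 to 0.18 for Itgax.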
